A study of Rattus norvegicus with 29 samples.

Results

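The untreated cultures of a study of kidney cell responses to 4 compounds were compared between 24 h and 6 h. They are the libraries labelled Control: 3 at 24 h (replicates 1, 2 and 3) and 2 at 6 h (replicates 2 and 3), chosen by their labels, 5 of the 29 libraries in the series. The remaining 24 libraries came from cultures exposed to acetaminophen, gentamicin, TCDD or trichloroethylene, with 3 libraries per compound at each of the same 2 times. All cultures were primary rat renal proximal tubule epithelial cells, cells taken from the animal and grown without immortalisation. The strain, sex and age of the rats, the vehicle of the controls and the age of the cultures at the start of the clock were not stated in the sources used here. Nor do the labels say that replicates came from separate cultures or animals, and the p-values therefore speak only of the spread among these libraries, which may be technical.

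The proximal tubule is the first segment of the nephron and takes back most of the sodium, glucose, amino acids, phosphate and small proteins that the glomerulus filters. Its cells run on oxidative metabolism and make glucose from lactate and amino acids. Once isolated and plated, primary tubule cells are known to lose part of this differentiated state, so an untreated culture is a moving baseline. Comparing a compound with control at the same time allows for this change only as far as it is the same with the compound present.

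RNA was read as transcript abundances, one value per transcript identifier. The files give identifiers without gene names, and 0 of the 28420 identifiers matched the reference table used here. The cell type could therefore not be checked against its marker genes, and no gene list could be counted. Transcripts are described below by their length, their level and their values in each library, and 4 are given by identifier. Levels are in TPM, a share of all transcripts in a library that is corrected for transcript length. Changes are log2 changes of counts, 24 h minus 6 h. Both are relative to the rest of the library, and in bulk RNA fewer cells of a type and less RNA per cell cannot be told apart.

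The 5 control libraries held between 8513263 and 10566202 estimated counts, within the range of the series (8243698 to 11446612). At least 1 count was found for 17095, 17090 and 17188 transcripts in the 24 h libraries, and for 16921 and 17094 in the 6 h libraries. Transcripts at 1 TPM or more numbered 14200, 14125 and 14018 at 24 h, against 13621 and 13697 at 6 h, so the 24 h libraries were all higher on this measure. Counts were a little more concentrated at the very top: the 10 transcripts with most counts held 6.68%, 6.52% and 6.24% of a 24 h library, against 5.27% and 5.34% of a 6 h library. The top 1000 went the other way, with 51.74%, 51.64% and 51.74% at 24 h, against 52.25% and 52.14% at 6 h. Fragments were longer at 24 h. The fragment length, taken as the bases between a transcript's length and its effective length, was 288.8, 276.8 and 269.9 bases in 24 h replicates 1, 2 and 3, against 257.1 and 263.2 bases in 6 h replicates 2 and 3. For fragment length, as for all but 1 of 11 such measures, the 3 libraries of 24 h lay apart from both of 6 h. An exact permutation test of 3 against 2 libraries gave a 2-sided p of 0.2 for it, the smallest this design allows, or 0.22 after Benjamini-Hochberg adjustment over the 11.

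Many transcripts differed between the times, mostly by modest amounts. Of 15990 transcripts tested with edgeR in 1 model over all 29 libraries, 3985 passed a Benjamini-Hochberg adjusted p of 0.05, which is 24.9%. Of these, 1973 rose at 24 h (12.3% of those tested) and 2012 fell (12.6%). Rises had a median log2 change of 0.61 and falls one of -0.55, and 85.3% of the calls were changes of no more than 2-fold. By limma on log2(TPM + 1), a scale on which the overall median lay 0.108 higher, there were 2408 rises and 1094 falls, so that rises were 68.8% of calls, beside 49.5% in the main fit. Beyond 2-fold, rises outnumbered falls, with 380 against 207, and beyond 4-fold there were 47 rises and 31 falls. In 3786 of the 3985 (95%), all 3 libraries of 24 h lay beyond both of 6 h. That was also so for 56% of all tested transcripts, so non-overlap alone says little with 2 libraries at 6 h. The count rests on single libraries: it was 1655 without 6 h replicate 2, 1833 without 6 h replicate 3 and 2118 without 24 h replicate 1, and a lone library of 6 h was taken to vary as the other groups did. With fragment length as a covariate it was 2252. None of the 3985 had the opposite sign in any of the 18 alternatives in which it was tested. They were called for a clear change in these same libraries, so reversals were unlikely from the start and this is a description.

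Libraries of 1 time were closer to each other than to those of the other time. The root mean square difference in log2 CPM over tested transcripts was 0.59, 0.656 and 0.62 between pairs of 24 h libraries and 0.566 between the 2 libraries of 6 h. Between 24 h and 6 h libraries it ran from 0.711 to 0.848. Replicate 1 of 24 h lay farthest from both 6 h libraries, at 0.848 and 0.835, and replicate 3 lay nearest, at 0.722 and 0.711. The called transcripts showed the same order. For the rises, the median distance above the 6 h mean was 0.705 in replicate 1, 0.586 in replicate 2 and 0.505 in replicate 3, and replicate 1 held the highest of the 3 values for 68.1% of them. For the falls, the medians were -0.676, -0.531 and -0.447, and replicate 1 was the lowest for 69.9%.

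In the pool of transcripts, those that rose made up 15.4%, 13.7% and 11.5% of all TPM in the 24 h libraries, against 7.87% and 8.04% in the 6 h libraries. Those that fell made up 17.2%, 19% and 19.4% at 24 h, against 24.8% in each library of 6 h. These shares follow from how the transcripts were chosen and are given as a description. The transcripts without a call held between 67% and 69% of TPM in every control library.

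How much stability the data can show depends on the spread. Log2 changes had a median SE of 0.17. For 5888 of the tested transcripts (36.8%), the 95% interval of the change lay wholly within 1.5-fold in either direction, and 535 of these were nonetheless called. Within 2-fold the intervals of 10283 transcripts (64.3%) were contained. The intervals of the remaining transcripts reached beyond 2-fold. Of the 15990 tested, 15810 had a rounded count in at least 1 control library. The others hold no data on the control change. Their fitted change and SE can both be 0, so they can be among the intervals counted as contained.

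**Figure D1:**
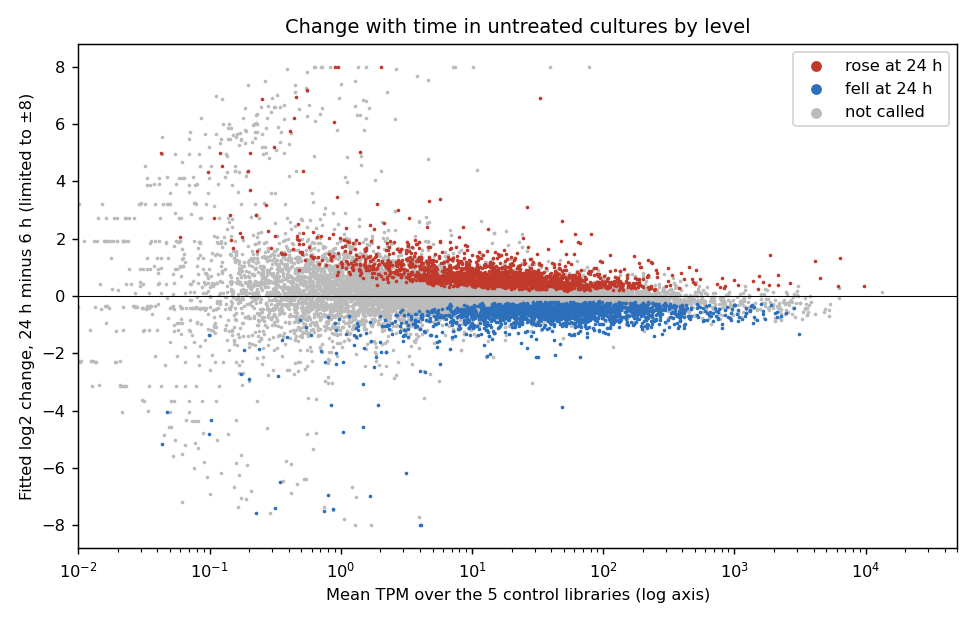
Fitted log2 change, 24 h minus 6 h, in untreated cultures (vertical axis, limited to 8 in either direction) against the mean TPM over the 5 control libraries (log axis), 1 point per tested transcript. Red points are the 1973 that rose, blue points the 2012 that fell and grey points those not called; at 100 TPM or more there are 465 blue points and 137 red ones, and large fitted changes stand mostly at low levels, where many are not called.

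Among highly expressed transcripts falls prevailed, and among scarce ones rises, which the plot of change against level shows as a tilt. Of 1586 tested transcripts with a mean of 100 TPM or more over the 5 control libraries, 465 fell (29.3%) and 137 rose (8.64%), with a median log2 change of -0.22. Between 10 and 100 TPM, 1283 fell and 1130 rose among 7490, and the median was -0.01. Between 1 and 10 TPM the balance was the other way: 634 rose (13.6%) and 234 fell (5.01%) among 4674, with a median of 0.17. Under 1 TPM, where the median SE was 0.8, only 102 of 2240 were called. On log2(TPM + 1) the medians of the classes at 100 TPM or more and between 1 and 10 TPM were -0.04 and 0.25, and between 10 and 100 TPM rises outnumbered falls, with 1306 against 647. Among the 100 most abundant transcripts, the lowest of which had a mean of 1637 TPM, the median was -0.3, and 4 calls exceeded 2-fold. There 11 rose and 11 fell, so calls of falls did not prevail at the very top. Over all tested transcripts 12.3% rose and 12.6% fell.

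The direction of the changes went with transcript length. Tested transcripts were split into 5 classes of length, each including its lower limit and not its upper, and the median log2 change climbed through them in order: -0.19 under 1000 bases, -0.07 from 1000 to 2000, 0.04 from 2000 to 3000, 0.15 from 3000 to 5000 and 0.29 at 5000 bases and over, beside 0.01 over all tested transcripts. The share of calls that rose went with it. Of the 541 calls under 1000 bases, 133 rose and 408 fell, so that rises were 24.6%. From 1000 to 2000 bases 427 rose and 936 fell (31.3% rises), from 2000 to 3000 bases 471 rose and 417 fell (53%), and from 3000 to 5000 bases 595 rose and 226 fell (72.5%). At 5000 bases and over, 347 rose and 25 fell, so that rises were 93.3%. The share of transcripts called differed less, between 21.6% in the shortest class and 31.1% in the longest, against 24.9% over all.

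The same tilt was present in each library of 24 h, but not to the same extent. Set against the mean of the 6 h libraries, the shortest class had a median log2 CPM difference of -0.25 in replicate 1, -0.23 in replicate 2 and -0.08 in replicate 3. The longest class had 0.36, 0.31 and 0.16. Replicate 3 thus showed the smallest tilt of the 3. The order of the tilt was the order of fragment length, which was 288.8, 276.8 and 269.9 bases in these replicates. The 2 libraries of 6 h, which share their time, differed in the same manner on a smaller scale: replicate 3 minus replicate 2, with fragments of 263.2 and 257.1 bases, gave -0.04 in the shortest class and 0.04 in the longest.

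**Figure D2:**
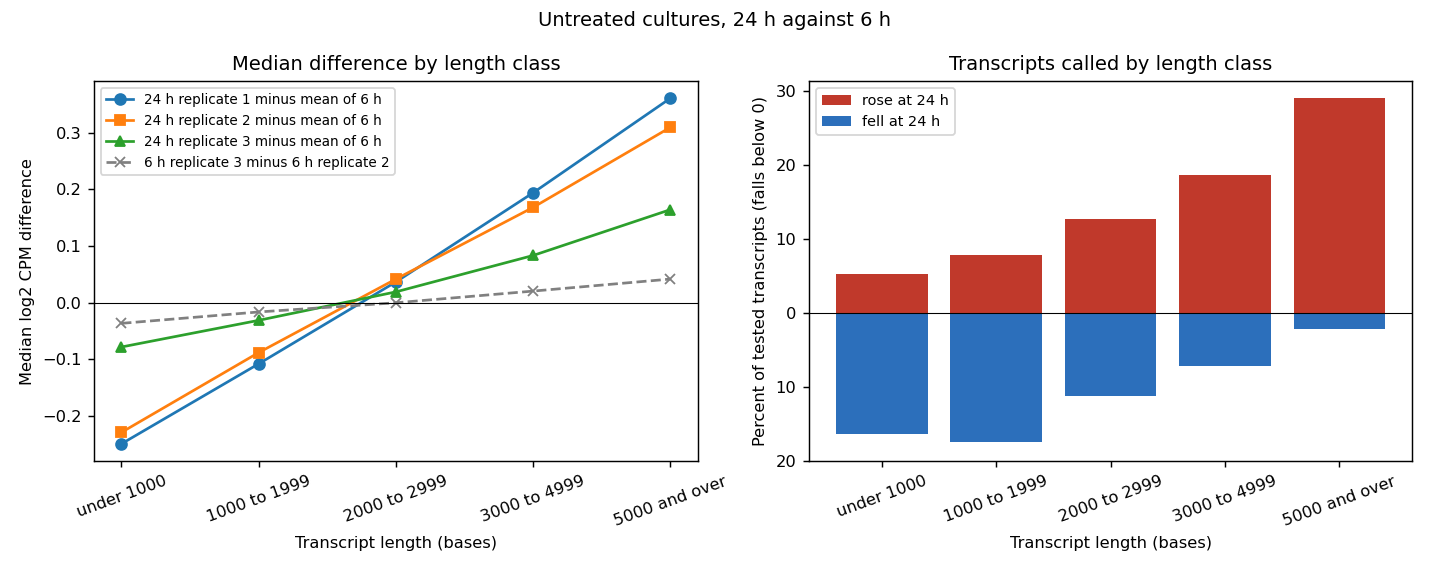
Left, median difference in log2 CPM by class of transcript length (bases) for each 24 h library minus the mean of the 6 h libraries, and for 6 h replicate 3 minus 6 h replicate 2 (dashed). Right, percent of tested transcripts in each class that rose (red, above 0) and fell (blue, below 0) at 24 h; rises grow from 5.31% in the shortest class to 29% in the longest and falls shrink from 16.3% to 2.09%.

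Fragment length moved with the tilt, and its part in the time change was not tested apart from adding it to the model. With a covariate for each library's fragment length, the medians of the shortest and the longest class were -0.08 and 0.21, a span of 0.285, beside a span of 0.492 in the main fit. Rises still outnumbered falls in the longest class in that fit (177 against 34), and falls still outnumbered rises in the shortest (132 against 60), while from 2000 to 3000 bases the balance turned to 285 rises and 306 falls. With the effective length of each library as an offset, the span was 0.43. On the log2(TPM + 1) scale, which shifted all medians upward, the class medians relative to the overall median were -0.14 in the shortest class and 0.19 in the longest. From 1000 to 2000 bases the balance of calls turned on that scale, to 673 rises and 566 falls. In these 3 fits the medians kept their order from short to long.

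The tilt by length was also read within ranges of level. Between 10 and 100 TPM the median log2 change was -0.19, -0.12, -0.0007, 0.12 and 0.27 from the shortest class to the longest. At 100 TPM or more it ran -0.38, -0.2, -0.1, 0.07 and 0.08, the last over 33 transcripts. Between 1 and 10 TPM the medians were all positive and not in order, at 0.14, 0.1, 0.16, 0.25 and 0.32, and from 1000 to 2000 bases rises outnumbered falls there, with 133 against 94. Within the shortest class the median was 0.14 between 1 and 10 TPM, and -0.38 at 100 TPM or more. In shares of all counts, transcripts under 1000 bases held 10.5%, 10.5% and 12.5% of the 24 h libraries, against 13.7% and 13.2% of the 6 h libraries. Those of 5000 bases and over held 14.8%, 14.6% and 13.2% at 24 h, against 11.8% and 12.2% at 6 h.

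Because of this tilt, the strongest changes were read within each class of length. Counted from the median of their own class, called changes beyond 2-fold numbered 87 rises and 54 falls under 1000 bases, 113 and 55 from 1000 to 2000, 68 and 23 from 2000 to 3000, 59 and 15 from 3000 to 5000, and 24 and 12 at 5000 bases and over. In this fit rises of that size, counted from the class median, were the more numerous in each of the 5 classes, also in the shortest, where most calls were falls. Counted from 0 instead, the shortest class had 65 rises and 94 falls beyond 2-fold. In the longer classes rises were the more numerous on either count. For each class the 3 strongest rises and the 3 strongest falls were taken among called transcripts with a mean of at least 50 estimated counts, 30 in all. In all 30, the libraries of the 2 times did not overlap. That was true of 56% of tested transcripts and of 95% of the calls, from which the 30 were chosen by size of change. For 14 of the 30, the authors' tool had divided reads with other transcripts, so that a change and a shift of reads between transcripts cannot be told apart.

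Among the shortest transcripts, the strongest rise was that of ENSRNOT00000042810, a transcript of 645 bases. It stood at 78.2, 71.3 and 72.8 TPM in the 24 h libraries, against 9.52 and 11.3 TPM in the 6 h libraries. The 3 values of 24 h lay close together and far above both of 6 h. The log2 change was 2.61 ± 0.5 (SE; edgeR adjusted p = 0.000828), a 6.12-fold difference. It remained called in all 18 alternatives. Its reads were shared with other transcripts. The other leading rises of the class, of 664 and 919 bases, had log2 changes of 1.72 and 1.47.

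ENSRNOT00000075524, of 698 bases, had the strongest fall of the class. It was at 2.77, 23.2 and 63.3 TPM in the 24 h libraries, against 121.6 and 119.9 TPM in the 6 h libraries. The libraries of 6 h were nearly equal, while those of 24 h were widely spread, all of them below 6 h. The log2 change of -2.14 ± 0.77 (SE) passed narrowly, with an edgeR adjusted p of 0.0476. It did not pass in 10 of 18 alternatives, among them those without 24 h replicate 1 (-1.62), without 24 h replicate 2 (-1.95) and without either library of 6 h (-2.11 and -2.17), as well as the replicate block (adjusted p = 0.065) and the fragment length covariate (-1.13, adjusted p = 0.22). Without 24 h replicate 3 it was -3.41 and passed (edgeR adjusted p = 0.01). Next to it a transcript of 628 bases was more even, at 13.3, 15.5 and 15.2 TPM at 24 h, against 50.3 and 60 TPM at 6 h, with a log2 change of -2.11 ± 0.37 (edgeR adjusted p = 0.000441).

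From 1000 to 2000 bases, a transcript of 1660 bases led the rises. It had 10.2, 6.08 and 10.9 TPM in the 24 h libraries, against 1.16 and 0.39 TPM in the 6 h libraries. The log2 change was 3.39 ± 0.55 (SE; edgeR adjusted p = 0.000165), a 10.5-fold difference of a scarce transcript. The next rises of the class, of 1703 and 1830 bases, had log2 changes of 1.92 and 1.71.

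The class had 885 falls at 50 counts or more. The deepest was that of a transcript of 1983 bases, which had no count in any 24 h library, against 91 and 228 counts (6.13 and 14.4 TPM) in the 6 h libraries. Set against 3 counts per 24 h library, it was at least 47-fold lower at 24 h (edgeR adjusted p = 0.0104). It was not called without 6 h replicate 3 or with the fragment length covariate. ENSRNOT00000024030, of 1422 bases, was far better covered. It stood at 8.62, 21.8 and 14 TPM in the 24 h libraries, against 55.9 and 60.1 TPM in the 6 h libraries. Its counts ran from 67 to 187 at 24 h, against 560 and 639 at 6 h, and no read of it was divided. The log2 change was -2.12 ± 0.29 (SE; edgeR adjusted p = 3.95e-05), and the call held in all 18 alternatives. A transcript of 1409 bases, also without divided reads, was tighter still: 23.9, 26 and 26.9 TPM at 24 h, against 69.9 and 63.4 TPM at 6 h, a log2 change of -1.54 ± 0.19.

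From 2000 to 3000 bases, the strongest rise was found in a transcript of 2388 bases. It had 8.78, 6.83 and 6.51 TPM at 24 h, against 0.763 and 0.564 TPM at 6 h, a log2 change of 3.31 ± 0.46 (SE) at an edgeR adjusted p of 3.81e-05. A transcript of 2712 bases reached higher levels, with 41, 32.5 and 33.1 TPM at 24 h, against 8.25 and 7.58 TPM at 6 h. Its log2 change was 2.02 ± 0.25, or 4.05-fold. Both had divided reads, and both kept their call in all 18 alternatives. Another, of 2536 bases and without divided reads, had 6.03, 4.85 and 4.92 TPM at 24 h, against 1.33 and 1.1 TPM at 6 h (log2 change 1.96 ± 0.3).

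Of the falls in this class, the nominally deepest was not stable. A transcript of 2307 bases had 0, 0 and 5.2 estimated counts at 24 h, against 161.2 and 116.4 at 6 h. It passed at an edgeR adjusted p of 0.0497 and did not pass in 10 of 18 alternatives, each of the 5 that leave out a library among them. A transcript of 2436 bases showed the opposite: a smaller change, read with more precision. It had 3.87, 6.12 and 4.29 TPM at 24 h, against 10.1 and 12.6 TPM at 6 h, and a log2 change of -1.4 ± 0.14 (SE) at an edgeR adjusted p of 7.94e-07, which held in all 18 alternatives.

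From 3000 to 5000 bases the leading changes were smaller, between 1.61 and 1.9 for rises and between -1.37 and -1.04 for falls. A transcript of 4412 bases led the rises with 5.09, 4 and 4.67 TPM at 24 h, against 1.31 and 0.919 TPM at 6 h (log2 change 1.9 ± 0.29, edgeR adjusted p = 8.36e-05). A transcript of 3118 bases followed with 11.6, 9.26 and 11 TPM at 24 h, against 3.33 and 2.48 TPM at 6 h, a log2 change of 1.72 ± 0.22. In both, the 24 h libraries lay well above those of 6 h. The leading fall, in a transcript of 4358 bases with divided reads, was one of 2.36, 1.61 and 1.95 TPM at 24 h, against 4.52 and 4.65 TPM at 6 h (log2 change -1.37 ± 0.2, edgeR adjusted p = 6.97e-05).

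Among the longest transcripts stood the strongest rise of any of the 30. ENSRNOT00000014939, of 5906 bases, was at 86, 41.2 and 36.3 TPM in the 24 h libraries, against 0.742 and 0.0712 TPM in the 6 h libraries. In counts these were 3314, 1738 and 1652 at 24 h, against 36.1 and 3.7 at 6 h. The 6 h values were near 0 and all 24 h values far above them, with a log2 change of 6.93 ± 1.28 (SE) at an edgeR adjusted p of 0.000807. It was called in all 18 alternatives, with values between 5.24 on log2(TPM + 1) and 9.28 without 6 h replicate 2. Its counts were not whole, so reads that fit it also fit other transcripts, and the identity of those transcripts is not given in the files. The other leading rises, of 6630 and 5481 bases, had log2 changes of 1.95 and 1.9, and that of 5481 bases was lost in 5 of 18 alternatives.

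Falls were rare in the longest class, with 21 at 50 counts or more, and shallow. A transcript of 5157 bases had 0.749, 1.04 and 1.04 TPM at 24 h, against 1.99 and 1.71 TPM at 6 h (log2 change -1.1 ± 0.2, edgeR adjusted p = 0.000395). One of 10881 bases had 2.57, 3.3 and 2.26 TPM at 24 h, against 4.65 and 5.74 TPM at 6 h (log2 change -1.08 ± 0.21). Another leading fall, of 5215 bases, had a log2 change of -0.93. Its reads had been divided, those of the other two had not.

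**Figure D3:**
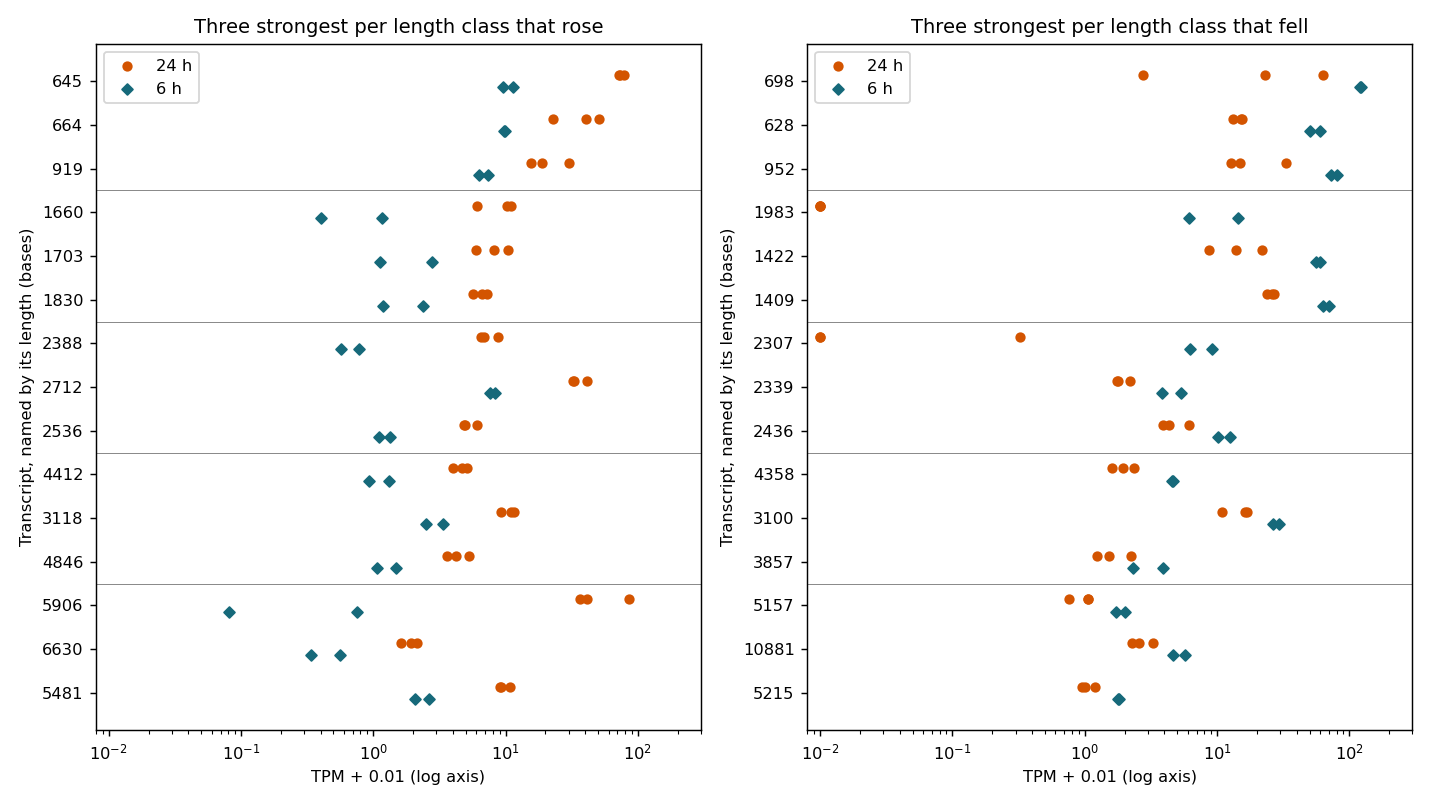
TPM + 0.01 (log axis) in each control library of the 30 transcripts that led their length classes, 24 h as orange circles and 6 h as blue diamonds. There is 1 row per transcript, named by its length in bases and grouped by length class. Left, the 3 strongest rises per class; right, the 3 strongest falls. No row shows overlap between the times, the transcripts of 1983 and 2307 bases sit at or near 0 at 24 h, and the 3 values of 24 h of the 698-base transcript are widely spread.

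A few transcripts appeared or disappeared. By a limit of at least 10 counts in every library of one time and none at the other, 6 appeared at 24 h and 9 disappeared. Of those that appeared, 2 passed the test, one of 2930 bases (28.4, 45.1 and 19.6 counts at 24 h, edgeR adjusted p = 0.0395) and one of 5549 bases (98.8, 31.6 and 40 counts, adjusted p = 0.00118). All 6 had divided reads. One of those not called, of 1521 bases, had 216, 139.8 and 35.2 TPM at 24 h and was listed without a count at 6 h (adjusted p = 0.133). In compound cultures these transcripts were also found at 6 h. The 5549-base transcript had 6 h medians between 1.05 and 1.28 TPM, depending on the compound. That of 2930 bases had 1.96 TPM in TCDD cultures, 1.23 TPM in gentamicin cultures, 0.757 TPM in acetaminophen cultures and 0 in trichloroethylene cultures. That of 1521 bases had a 6 h median of 112.7 TPM in trichloroethylene cultures and of 0 in the others. Of the 9 that disappeared, 5 passed, of which 4 had no divided reads: besides the transcript of 1983 bases these were of 701, 1415 and 1674 bases, with between 13 and 31 counts in the libraries of 6 h. Absence of these 4 was not confined to 24 h. At 6 h the 1983-base transcript had a median of 9.39 TPM with acetaminophen and 8.48 TPM with gentamicin. Its median was 0 with TCDD, where the highest library had 12.2 TPM, and 0 with trichloroethylene. The other 3 likewise had 6 h medians above 0 with acetaminophen and gentamicin, and of 0 with TCDD and trichloroethylene.

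Whether the time change recurs when a compound is present can be read from the other cultures, which share no library with the controls. Between 24 h and 6 h, acetaminophen cultures changed in 6842 transcripts (42.8% of those tested), gentamicin cultures in 8283 (51.8%), trichloroethylene cultures in 7602 (47.5%) and TCDD cultures in 10190 (63.7%). Of the 1973 transcripts that rose in control, 688 (34.9%) also rose with acetaminophen, where 21.3% of all tested transcripts rose, and 313 (15.9%) fell. With trichloroethylene 811 (41.1%) rose, beside 24.5% of all tested, and 313 fell. With gentamicin 678 (34.4%) rose, beside 25.3% of all, and 489 fell. With TCDD the balance was the other way, as 582 (29.5%) rose, beside 32.5% of all, and 825 (41.8%) fell. The opposite calls were 15.9% of the control rises with trichloroethylene and 24.8% with gentamicin. Over all tested transcripts, 21.5% fell with acetaminophen, 23.1% with trichloroethylene, 26.5% with gentamicin and 31.3% with TCDD.

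The transcripts that fell in control repeated this. Of the 2012, 876 (43.5%) fell with acetaminophen (21.5% of all tested) and 806 (40.1%) with gentamicin (26.5%). Another 964 (47.9%) fell with trichloroethylene (23.1%) and 608 (30.2%) with TCDD (31.3%), these sets overlapping. With TCDD 788 (39.2%) rose, beside 32.5% of all tested. Seen from the compound's side, the shared changes were 20.2% of the rises and 25.5% of the falls with acetaminophen, and 20.7% and 26.1% with trichloroethylene. The shares were 16.8% and 19% with gentamicin, and 11.2% and 12.2% with TCDD. A set of 98 transcripts rose in control and with all 4 compounds, and 131 fell in all 5 cultures. These are 4.97% and 6.51% of the control calls, while 3.43% of all tested transcripts were called in all 4 compounds in the direction of their fitted control change. Against the control call, 20 of the 1973 rises and 17 of the 2012 falls were called the opposite way in all 4. Over all tested transcripts, 211 of 15990 were called in all 4 against the direction of their fitted control change. Among the rises 100 (5.07%), and among the falls 89 (4.42%), had no time change called with any compound, beside 12.3% of all tested transcripts.

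Across the 15990 transcripts, the log2 change in control correlated with that under acetaminophen at r = 0.191, and at 0.079 with trichloroethylene, 0.052 with gentamicin and -0.038 with TCDD. These are descriptions over transcripts of 2 sets of libraries, which can each carry a tilt by length, with changes limited to 6 in either direction. After the median of each length class was taken off, they were 0.176, 0.084, 0.044 and -0.016.

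The tilt by length differed between cultures, and fragment length went partly with it. The median time change in the shortest and the longest class was -0.2 and 0.3 in control (fitted values), -0.14 and 0.21 with acetaminophen, -0.15 and 0.12 with gentamicin, 0 and -0.03 with trichloroethylene, and 0.19 and -0.63 with TCDD. The mean fragment length at 24 h minus that at 6 h was 18.4 bases in control, 4.9 with acetaminophen, 8.1 with gentamicin, -17.7 with trichloroethylene and -26.5 with TCDD. The cultures whose fragments were longer at 24 h had the higher medians in the longest class, and in the TCDD cultures, with the largest shortening, the tilt was turned round. The order was not strict. Acetaminophen cultures, at 4.9 bases, had a higher median in the longest class than gentamicin cultures, at 8.1 bases. Trichloroethylene cultures, at -17.7 bases, had almost no tilt. What fragment length contributes in each culture was not tested.

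**Figure D4:**
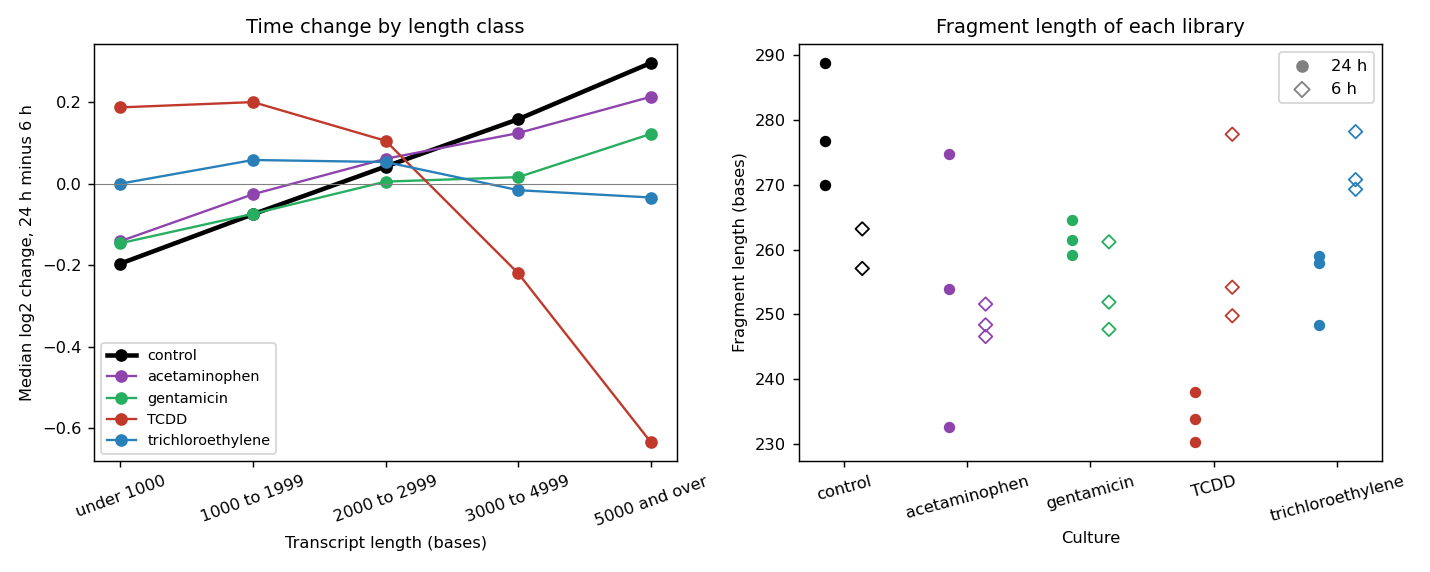
Left, median log2 change, 24 h minus 6 h, by class of transcript length (bases) in control (black) and compound-treated cultures. Right, fragment length in bases of each library, 24 h as filled circles and 6 h as open diamonds, by culture. The control line climbs from -0.2 to 0.3 and the TCDD line drops from 0.19 to -0.63; fragments are longer at 24 h than at 6 h in control and shorter in TCDD.

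The 30 control changes that led their length classes were set beside the compound cultures. They were chosen on their control values, so the counts are a description. Of the 15 rises, 1 also rose and 0 fell in acetaminophen cultures, 1 rose and 2 fell in gentamicin cultures, 1 rose and 5 fell in TCDD cultures, and 6 rose and 1 fell in trichloroethylene cultures. Of the 15 falls, 5 also fell and 4 rose with acetaminophen, 3 fell and 7 rose with gentamicin, 4 fell and 5 rose with TCDD, and 7 fell and 2 rose with trichloroethylene. Over all tested transcripts, 21.3% to 32.5% rose and 21.5% to 31.3% fell, depending on the compound. The difference between the compound's and the control's time change was called for between 9 and 13 of the 15 rises, and for between 7 and 12 of the 15 falls, depending on the compound, beside 25.9% to 56.0% of all tested transcripts.

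ENSRNOT00000014939, at a mean of 54.5 ± 27.4 TPM in control at 24 h (SD, n = 3), was at 0.787 ± 0.739 TPM with acetaminophen, 2.73 ± 0.0993 TPM with gentamicin, 0.254 ± 0.22 TPM with TCDD and 1.15 ± 0.317 TPM with trichloroethylene at the same time. At 6 h its means were 0.407 TPM in control (n = 2), 0.781 TPM with acetaminophen, 1.01 TPM with gentamicin, 9.71 TPM with TCDD and 10.8 TPM with trichloroethylene. Outside the untreated cultures at 24 h, no library of the 29 was above 17.2 TPM. ENSRNOT00000042810 showed a like pattern on a smaller scale: 74.1 ± 3.63 TPM in control at 24 h, and no other library of the series above 26.9 TPM.

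The falling transcripts had other patterns. ENSRNOT00000024030 fell to 14.8 ± 6.63 TPM in control at 24 h (SD, n = 3), against a mean of 58 TPM at 6 h. It also fell to 4.18 ± 1.28 TPM with trichloroethylene, against 46.4 ± 4.17 TPM at 6 h, a log2 change of -3.52 ± 0.32 (SE) at an edgeR adjusted p of 5.43e-09, and to 22.2 ± 2.27 TPM with acetaminophen, against 47.6 ± 1.73 TPM at 6 h. With gentamicin and TCDD it had 42.5 ± 10.1 and 37.8 ± 7.15 TPM at 24 h, against 60.2 ± 8.57 and 53.6 ± 6.24 TPM at 6 h, differences that did not pass (log2 changes -0.38 and -0.08). The log2 changes are of scaled counts, and with TCDD that scale showed less of a fall than TPM did. ENSRNOT00000075524 varied widely within groups. In TCDD cultures it rose to 221.3 ± 34.7 TPM, against 97 ± 56.3 TPM at 6 h (log2 change 1.58 ± 0.64, edgeR adjusted p = 0.0365), and in the 6 h libraries of trichloroethylene it ranged from 8.21 to 68.1 TPM.

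**Figure D5:**
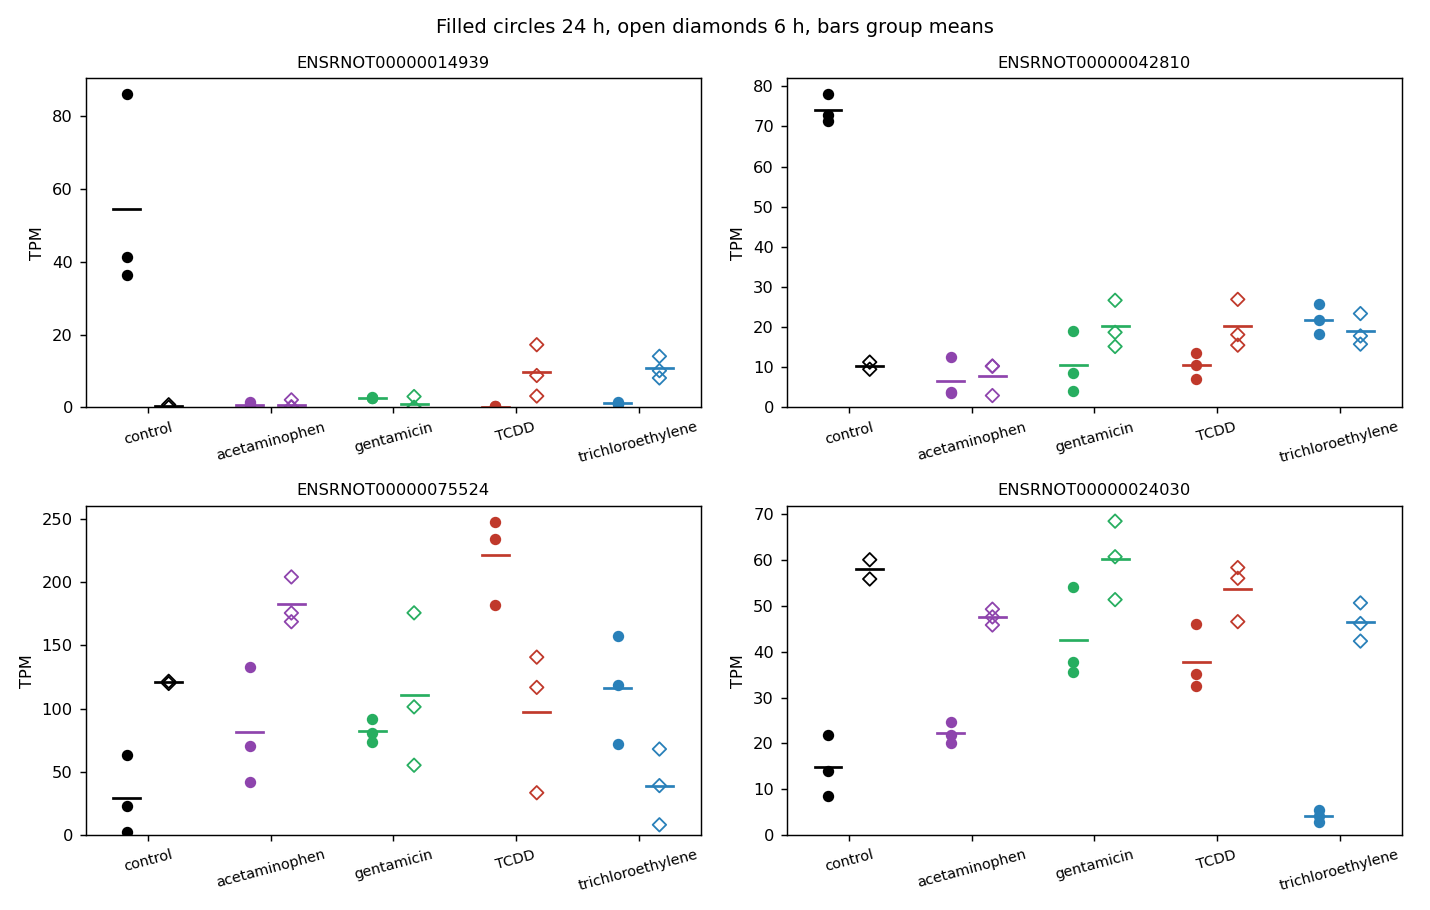
TPM of the 4 transcripts given by identifier in all 29 libraries by culture, with 24 h as filled circles, 6 h as open diamonds and group means as bars. ENSRNOT00000014939 and ENSRNOT00000042810 are higher in the untreated libraries of 24 h than in any other library, ENSRNOT00000024030 is lowest with trichloroethylene at 24 h and next lowest in control at 24 h, and ENSRNOT00000075524 varies widely within groups.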

How the data were processed

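RNA-seq of 29 libraries was deposited as 1 table per library. The authors quantified transcripts with kallisto 0.43, per the submitters' processing notes. Which transcript set and release, strand setting and trimming they chose was not stated in the sources used here. Per the file headers, each deposited table gives for every transcript its length and effective length in bases, an estimated count and a TPM. Kallisto divides reads that fit several transcripts. Of the values in the control libraries, 1 per transcript and library over all 28420 transcripts and with zeros included, 19.98% were not whole. This is a share of values and not of reads.

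Estimated counts were rounded and fitted in 1 model with edgeR 4.0.16 (R 4.3.3; TMM scaling, robust quasi-likelihood test, low-count filter with a minimum of 10), with 1 term per group over the 10 groups and 19 residual degrees of freedom. The filter kept 15990 transcripts and 99.949% of counts. P-values were adjusted by Benjamini-Hochberg over all of them, at 0.05. Alternatives used DESeq2 1.42.0, limma 3.58.1 on log2(TPM + 1) and log2(TPM + 0.1), other scalings and filters, effective length, fragment length, a replicate block and leaving out each control library. Fragment length was read from transcripts of 1000 bases or more, as the median difference between length and effective length. A transcript without counts at one time was set at 3 counts per library there. Medians by class in control use these bounds, and medians set beside compound cultures are fitted values.

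Named transcripts were, in each length class, the 3 strongest rises and 3 strongest falls among calls with a mean of at least 50 counts. Identifiers are printed for the 2 strongest rises and 2 strongest falls of at least 500 bases and 10 TPM. Gene lists could not be used without gene names. Members and lists were chosen with earlier results of these data known. On simulated counts for control, 24 h minus 6 h, over a mean of 15758 transcripts with 200 changed, the test recovered 37.4% of changes at 1.5-fold, 61% at 2-fold, 81.5% at 4-fold and 88.4% at 8-fold, with 4% false calls. The simulated counts were drawn independently for each transcript, with no tilt by length between the control times. These rates therefore need not hold for the calls made on the real libraries. Control replicate 1 at 6 h was not analysed here.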

Additional observations from a re-analysis of the deposited data

Results flagged for a closer look

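The time change differed between compound-treated and untreated cultures, by a test of the difference itself in the edgeR model, for 4139 transcripts with acetaminophen (25.9% of those tested), 5282 with trichloroethylene (33.0%), 6266 with gentamicin (39.2%) and 8959 with TCDD (56.0%). With fragment length as a covariate the trichloroethylene count was 2663. All 4 tests use the same 5 control libraries, so they are not independent of each other. For ENSRNOT00000014939, the compound's log2 change minus that of control was -7.3 with acetaminophen, -10.22 with trichloroethylene, -5.34 with gentamicin and -11.76 with TCDD. For ENSRNOT00000042810 it was -3.38, -2.43, -3.48 and -3.08 in the same order of compounds. For ENSRNOT00000075524 the difference was called with TCDD (3.73) and trichloroethylene (3.72). For ENSRNOT00000024030 it was called with gentamicin (1.74), TCDD (2.04) and trichloroethylene (-1.4). These 4 transcripts were chosen for a large change in control, so the sizes are a description. With 3 libraries or fewer per group, no library was tested as an outlier.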

How the results depend on the processing

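None of the 3985 control calls changed sign in any of 18 alternatives, which refit the same libraries that the calls were chosen on. Leaving out 1 control library gave 1655 to 4303 calls, with 47.3% to 50.9% rises. By level these ranges were 30 to 98 calls under 1 TPM, 356 to 896 from 1 to 10 TPM, 1012 to 2581 from 10 to 100 TPM and 257 to 728 at 100 TPM or more. The fitted medians by length, shortest class first, ranged from -0.253 to -0.166, -0.097 to -0.061, 0.033 to 0.047, 0.127 to 0.186 and 0.253 to 0.345. The differences from control ranged from 3043 to 4071 transcripts with acetaminophen, 5104 to 6229 with gentamicin, 7916 to 8935 with TCDD and 3629 to 5612 with trichloroethylene. DESeq2 called 4544.

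With fragment length as a covariate 2252 were called (48, 452, 1397 and 355 by rising level), the medians were -0.079 under 1000 bases, 0.025 from 2000 to 3000 and 0.091 from 3000 to 5000, and 2663 differed with trichloroethylene. On log2(TPM + 1) 68.8% of calls were rises and the medians of the first 4 length classes were -0.008, 0.056, 0.144 and 0.226. On log2(TPM + 0.1) these were 67.4% and -0.013, 0.065, 0.18 and 0.283, with 0.4 in the longest. Scaling by total counts gave 0.079 from 2000 to 3000 bases. Without a filter the medians of the 3 shorter classes were 0, many added transcripts having no control counts. At 10 CPM the median was -0.33 under 1000 bases and 0.029 from 2000 to 3000, with 19 calls under 1 TPM. With only the control libraries 52 were called under 1 TPM.

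Same-numbered control libraries deviated with correlations of -0.027 and -0.02. With 2 libraries at 6 h, their deviations from the group mean mirror each other. These values therefore cannot show whether same-numbered libraries share a source. The replicate block called 3719. With a replicate block over control replicates 2 and 3 only, 637 were called (28, 145, 363 and 101 by rising level) and the median from 2000 to 3000 bases was 0.025. Of the 30 named transcripts, 17 were called wherever tested and 13 missed at least 1 call. The causes were not tested.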

Other observations

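Transcripts whose reads were divided with others made up 36.8% of those tested and 30.8% of the control calls, but 41 of the 78 calls beyond 4-fold (52.6%), a count made after the values were seen. Their calls were fewer: 20.9% of the 5877 with divided reads were called, and 27.2% of the 10113 whose counts were whole in all 5 control libraries.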
